A study of Mus musculus with 4 samples.

Results

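The clustered replication-dependent histone genes were taken as every gene symbol of the 4 count tables that begins with Hist1h, Hist2h, Hist3h or Hist4h and has a row in all 4 tables. This gave 63 genes of 31735 shared gene rows: 6 linker histone H1 genes, 16 H2A, 18 H2B (1 of them a pseudogene, Hist3h2bb-ps), 10 H3 and 13 H4. Of these, 51 lie in the large cluster on chromosome 13 (Hist1), 8 on chromosome 3 (Hist2), 3 on chromosome 11 (Hist3) and 1 on chromosome 6 (Hist4). The libraries hold ribosome-bound RNA of the rostral pons of adult control mice without treatment. The mice are of the Cbln2-TRAP line NIDA172, in which the transgene Cbln2-EGFP-Rpl10a tags ribosomal protein L10a with EGFP, and ribosomes were pulled down with antibodies against EGFP. There was 1 group of 4 immunopurified libraries, replicates 1 to 4, with no unpurified RNA and no second genotype, so that levels and differences between replicates are all that can be described.

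Replication-dependent histone genes make the bulk of histone protein while DNA is copied. They are small and usually have no introns, and NPAT drives their transcription in S phase. Most of their mRNAs do not get a poly(A) tail: they end just after a short stem-loop, which is bound by the stem-loop binding protein SLBP and cut with the help of the U7 small nuclear RNA. Neurons do not divide and are supplied mainly by replacement histone genes such as H3f3b and H2afz, whose mRNAs are polyadenylated and made at any time. Some clustered genes, among them Hist1h1c, Hist1h2bc and Hist2h2be, are known to make longer, polyadenylated transcripts in cells that have left the cycle.

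The stem-loop is shown because it is the element that sets these mRNAs apart. The 2 members with the highest mean levels, Hist1h4d and Hist1h1e, also carry it well before the end of their gene models. A 16-base match to the pattern of the element (GG, any 2 bases, CTTTT, any base, AG, any 2 bases, CC, searched on the transcript strand) was found in the GENCODE M21 transcripts of 40 of the 63 members. Over all 55341 gene names of that annotation, 89 (0.161%) had a match, of which 44 were clustered histone genes. Of the 11 replacement histone genes, H2afx had a match. In the lines that follow, the 4 loop bases are in capitals and the stem bases in lower case.
Hist1h4d: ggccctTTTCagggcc
Hist1h4c: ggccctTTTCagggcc
Hist1h1e: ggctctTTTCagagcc
Hist1h1c: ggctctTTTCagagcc
Hist3h2ba: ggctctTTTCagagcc
Hist2h4: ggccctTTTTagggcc
Hist2h2ac: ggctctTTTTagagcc
H2afx: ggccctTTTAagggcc
The whole element of Hist1h4d occurred in 7 members and that of Hist1h1e in 22. Counting the stem alone, with any loop, 9 members had that of Hist1h4d and 29 that of Hist1h1e. The stems differ on both sides together. The other 23 members had no match, which says only that these letters are not in their models. Hist2h2be had no match in a model of 2620 bases.

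Promoter sequence was examined because many of the members differed between the libraries in the same direction. Of the 63 members, 57 had an entry among the RefSeq promoters (GRCm38.p6, 250 bases before to 50 after the start). CCAAT, on either strand, occurred in 48 of 57 members (84.2%) and in 37.4% of all 32851 promoters. It was present in all H1, H2A, H2B and H3 promoters with an entry but in 3 of 12 H4 promoters. TATAAA occurred in 57.9% of the members and in 13.6% of all promoters. The octamer ATTTGCAT, known from H2B promoters, occurred in 7 of 16 H2A and 6 of 15 H2B promoters, and in 1.7% of all promoters. AAACACA, known from H1 promoters, occurred in 5 of 6 H1 promoters and in 7.2% of all. The 150 bases before the start are printed for 4 members, with matches to these motifs on either strand in capitals: the 2 that differed between libraries by the test, the H2B gene with the highest level in the second library pair, and an H2A gene. The positions are chr13:23581418-23581567 on the plus strand for Hist1h4d, chr13:23622559-23622708 on the minus strand for Hist1h1e, chr11:58948761-58948910 on the plus strand for Hist3h2ba and chr3:96220881-96221030 on the minus strand for Hist2h2ac.
Hist1h4d: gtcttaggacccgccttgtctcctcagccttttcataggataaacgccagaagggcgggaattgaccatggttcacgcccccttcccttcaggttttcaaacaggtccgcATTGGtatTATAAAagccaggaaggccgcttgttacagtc
Hist1h1e: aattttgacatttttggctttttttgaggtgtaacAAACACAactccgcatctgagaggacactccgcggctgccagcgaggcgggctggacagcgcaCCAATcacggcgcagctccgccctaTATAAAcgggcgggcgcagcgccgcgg
Hist3h2ba: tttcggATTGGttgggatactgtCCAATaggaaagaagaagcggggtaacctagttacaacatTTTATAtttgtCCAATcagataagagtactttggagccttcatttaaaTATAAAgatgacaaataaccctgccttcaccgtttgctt
Hist2h2ac: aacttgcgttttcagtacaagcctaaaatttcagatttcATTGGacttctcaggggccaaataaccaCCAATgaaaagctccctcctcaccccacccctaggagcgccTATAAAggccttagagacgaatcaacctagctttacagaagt
All 4 windows hold both CCAAT and TATAAA, and that of Hist1h1e also holds the H1 motif. A match is a description of the letters and not of a bound site.

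The libraries held 21140265, 15556918, 12731825 and 15315942 gene counts in replicates 1 to 4, and levels are in CPM, counts per 1000000 gene counts of the library. A count of 0 allows up to 3 counts, or 0.142 to 0.236 CPM, and this floor covers counting error only. The descriptions number replicates 1 and 2 as libraries 1666 and 1667 (here the first pair) and replicates 3 and 4 as 2469 and 2470 (the second pair); they name no batch, and that of replicate 4 repeats the tag of replicate 3. The tables of replicates 1 and 2 held 32531 gene rows each, and those of replicates 3 and 4 held 32657. The pairs were thus not counted on the same list of genes. Whether the gene models of the members differed too is not known. The part of this in the differences between the pairs was not tested. The row Rn45s, named for the ribosomal RNA precursor, held 1.68% and 1.61% of the gene counts in the first pair and 24.2% and 9.29% in the second. The 7 neuronal markers reached 1 CPM in all 4 libraries and summed to 11256 to 23352 CPM, and RNA of other cells was present, with oligodendrocyte markers at 413 to 2375 CPM and astrocyte markers at 253 to 1575. Whether the replicates are separate animals or pools is not stated, so that the p-values speak of the variation among these 4 preparations, part of which may be technical.

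The clustered histone genes were low as a group and uneven between libraries. Summed over the 63 members, the level was 46.6, 21.7, 300 and 214 CPM in replicates 1 to 4, a mean of 146 ± 134 CPM (SD, n = 4). Both libraries of the second pair lay far above both of the first. The mean was 94.2 CPM without replicate 3. Of the members, 4 reached 1 CPM in all 4 libraries (6.35%, beside 33.5% of all shared genes): Hist1h4d, Hist1h1e, Hist2h2be and Hist1h4c. Another 29 reached it in some libraries only, and 30 in none. There were 13 members at 0 counts in all 4 libraries, and 16 had at least 1 count in every library. The number of members with a count was 23 and 27 in the first pair and 46 and 39 in the second.

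**Figure D1:**
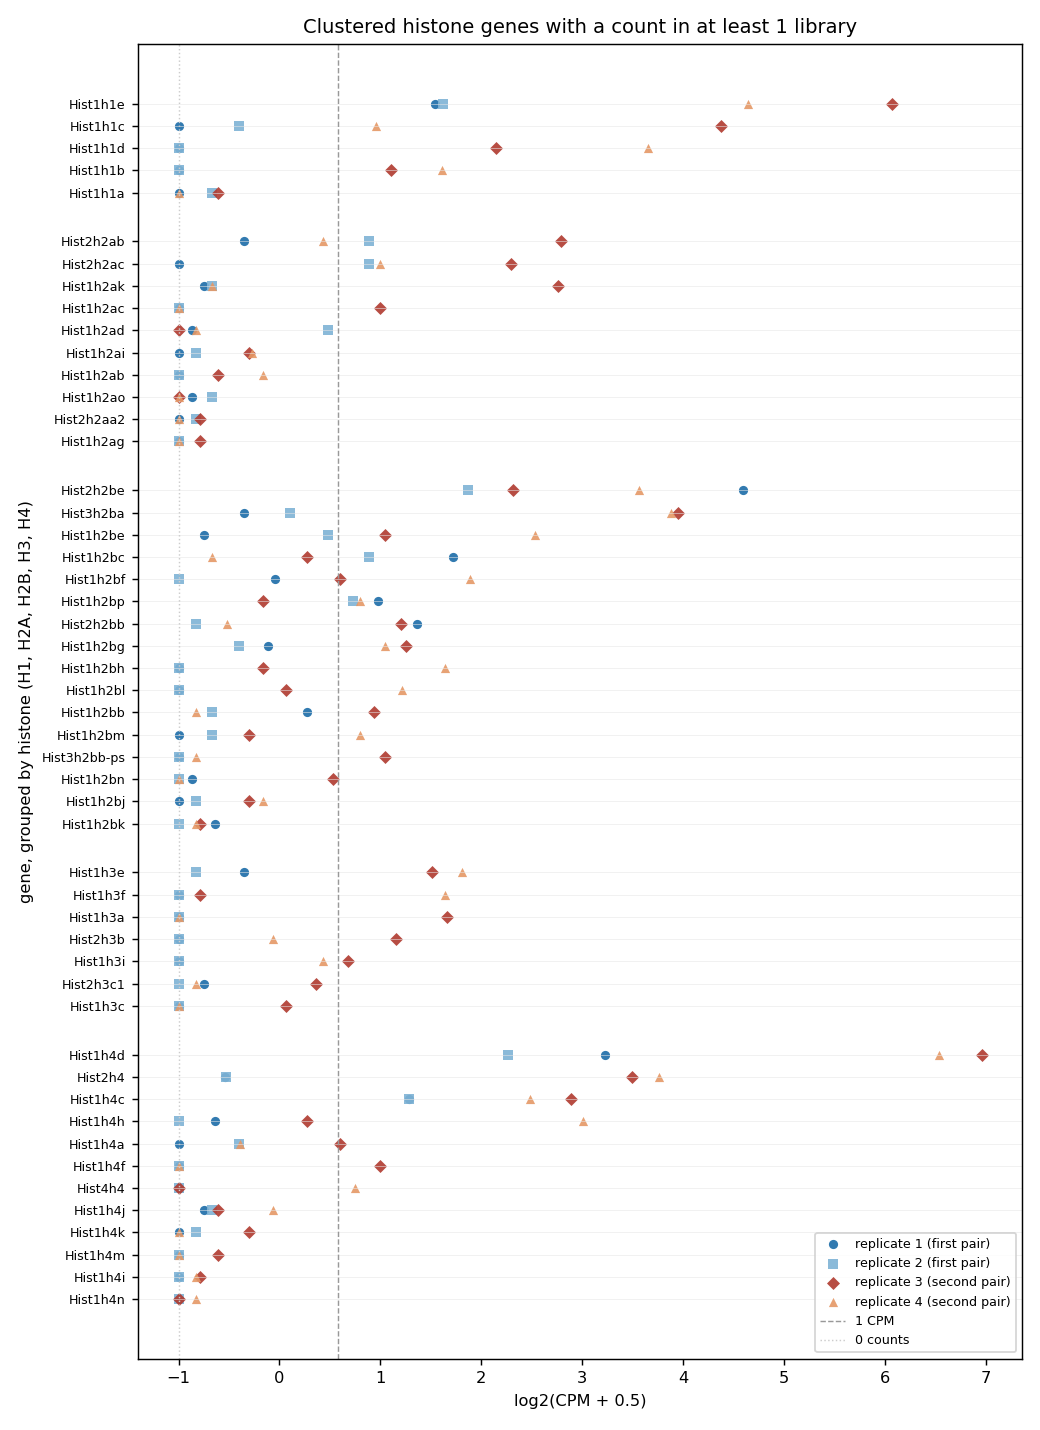
Level of the 50 clustered histone genes with a count in any library, as log2(CPM + 0.5) on the horizontal axis, 1 row per gene grouped by histone and 1 symbol per library. Red and orange symbols (replicates 3 and 4) lie to the right of the blue ones for most genes, with Hist1h4d at 124 and 92.5 CPM against 8.85 and 4.31.

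The histone classes did not share this evenly. H4 genes summed to 11.2, 6.88, 146 and 120 CPM in replicates 1 to 4, and H1 genes to 2.41, 2.96, 92.9 and 40.5 CPM. H3 genes stayed low throughout, at 0.378, 0.0643, 9.27 and 6.99 CPM. For these 3 classes both libraries of the second pair were above both of the first. H2B genes summed to 32.1, 7.78, 32.4 and 43.4 CPM, so that the libraries of the pairs nearly met. H2A genes summed to 0.473, 3.99, 19.2 and 3.26 CPM, and replicate 4 lay below replicate 2. As a share of all clustered histone counts, H2B made up 68.9% in replicate 1 but 10.8% in replicate 3, while H4 made up 24.1% and 48.7%.

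**Figure D2:**
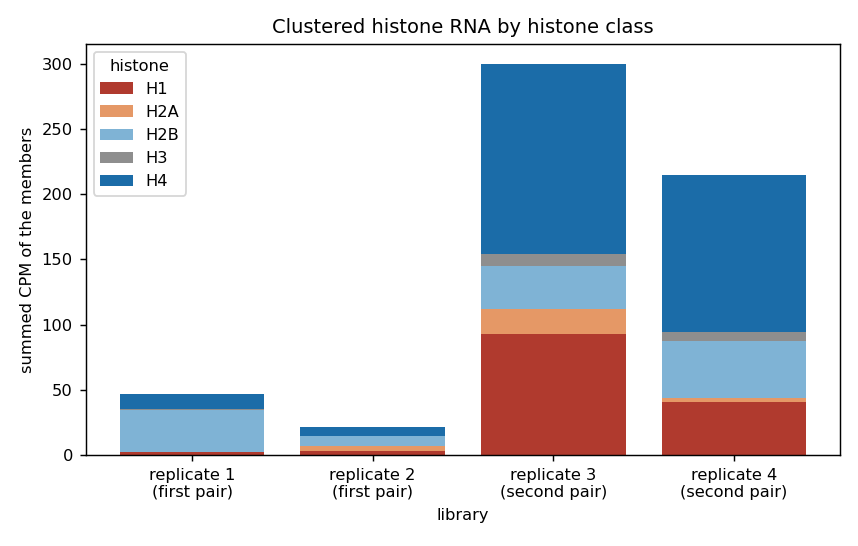
Summed CPM of the clustered histone genes in each library, stacked by histone class from 0. The bars reach 46.6, 21.7, 300 and 214 CPM, and most of the second pair's height is H4 and H1.

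Linker histones H1 bind the DNA between nucleosomes. Hist1h1e (ENSMUSG00000051627.3, chromosome 13, 23620629 to 23622558, minus strand, GRCm38), which encodes H1.4, had 51, 40, 852 and 375 counts, or 2.41, 2.57, 66.9 and 24.5 CPM in replicates 1 to 4. The second pair was higher without overlap, and the log2 change between the pairs was 4.26 with SE 0.82 (edgeR quasi-likelihood test, adjusted p = 0.0315). Without replicate 3 it was 3.19 and did not pass (edgeR adjusted p = 0.305). In GENCODE its exons overlap those of Hist1h2be on the same strand, so the counts of this pair are uncertain. Hist1h1c (chromosome 13, 23738808 to 23740367), which encodes H1.2, had 0, 4, 258 and 22 counts, or 0, 0.257, 20.3 and 1.44 CPM. Nearly all of its signal was in replicate 3, and the log2 change of 6.49 with SE 2.03 did not pass (edgeR adjusted p = 0.13).

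Hist1h1d (chromosome 13, 23553262 to 23560686), which encodes H1.3, had no counts in the first pair and 50 and 185 in the second, or 3.93 and 12.1 CPM. Against a floor of 3 counts over the first pair this is at least 102-fold higher, and the test gave an edgeR adjusted p of 0.0675. Hist1h1b, which encodes H1.5, was likewise without counts in replicates 1 and 2, with 1.65 and 2.55 CPM in replicates 3 and 4. Hist1h1a reached at most 2 counts. Hist1h1t, the linker histone of the testis, was at 0 counts in all 4 libraries.

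H2A and H2B form the outer dimers of the nucleosome. No H2A gene reached 1 CPM in all 4 libraries, and 6 of the 16 were at 0 counts in every one. Hist2h2ab (chromosome 3, 96219865 to 96220308) was at 0.284, 1.35, 6.44 and 0.849 CPM, and its neighbour Hist2h2ac (chromosome 3, 96220361 to 96220880) at 0, 1.35, 4.40 and 1.5 CPM. Both were highest in replicate 3, and the pairs overlapped for Hist2h2ab. The log2 changes were 2.24 with SE 1.90 and 2.18 with SE 2.18, and neither passed (edgeR adjusted p = 0.616 and 0.686). Without replicate 3 the change of Hist2h2ab turned to -0.056. Hist3h2a, a gene with known polyadenylated transcripts, was at 0 counts throughout.

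Hist2h2be (ENSMUSG00000068854.7, chromosome 3, 96221119 to 96223738, plus strand), an H2B gene known to be active in neurons, went another way than Hist1h1e. It had 499, 49, 57 and 173 counts, or 23.6, 3.15, 4.48 and 11.3 CPM, and was the leading clustered histone gene of replicate 1. Its highest and lowest libraries both belonged to the first pair. The log2 change was -0.77 with SE 1.11 (edgeR adjusted p = 0.799), and without replicate 1 it turned to 1.27. Hist1h2bc (chromosome 13, 23684199 to 23692908) was at 2.79, 1.35, 0.707 and 0.131 CPM. It was 1 of 2 members, with Hist1h2ao, that lay lower in both libraries of the second pair, but its log2 change of -2.20 with SE 2.05 was not called (edgeR adjusted p = 0.659).

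Hist3h2ba (ENSMUSG00000056895.4, chromosome 11, 58948920 to 58949533, plus strand) differed from both. It had 6, 9, 191 and 218 counts, or 0.284, 0.579, 15 and 14.2 CPM, with the libraries of each pair close together. The log2 change of 5.09 with SE 1.32 missed the threshold (edgeR adjusted p = 0.0774). Hist1h2be (chromosome 13, 23583670 to 23621124) was at 0.0946, 0.9, 1.57 and 5.29 CPM, with an edgeR adjusted p of 0.545. Of the 18 H2B genes, 9 lay higher in both libraries of the second pair, 1 lower, and 8 overlapped or were at 0. Hist1h2ba and Hist1h2aa, the H2B and H2A genes of the testis, were at 0 counts.

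H3 and H4 form the inner tetramer of the nucleosome. Hist1h3e led the H3 genes with 6, 1, 30 and 46 counts, or 0.284, 0.0643, 2.36 and 3.0 CPM. Of the 10 H3 genes, 3 were at 0 counts in all libraries and none reached 1 CPM in the first pair. The H4 genes held the highest member of all. Hist1h4d (ENSMUSG00000061482.7, chromosome 13, 23581598 to 23582735, plus strand) had 187, 67, 1585 and 1416 counts, or 8.85, 4.31, 124 and 92.5 CPM. The second pair was higher without overlap, by a log2 change of 4.08 with SE 0.58 (edgeR adjusted p = 0.0101). Per kb of exon it ranked 4551 and 6601 among 23128 genes in the first pair, and 189 and 315 in the second.

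The H4 genes encode the same or nearly the same protein, but their levels differed. Hist2h4 (chromosome 3, 96261682 to 96263311) was at 0.189, 0.193, 10.8 and 13.1 CPM, a log2 change of 5.92 with SE 1.49 that missed the threshold (edgeR adjusted p = 0.0721). Hist1h4c (chromosome 13, 23697635 to 23698454) was the steadiest of the 4 members detected throughout, at 1.94, 1.93, 6.91 and 5.09 CPM. Its log2 change was 1.67 with SE 1.43 (edgeR adjusted p = 0.623). Hist1h4h had 3, 0, 9 and 116 counts, with almost all of them in replicate 4. Its ratio between the pairs was 54.5 (95% exact interval 18.2 to 268, counting error only), and it was not called (edgeR adjusted p = 0.254). Without replicate 4 the ratio was 8.65 (2.16 to 49.7). Hist4h4, the gene on chromosome 6, had counts in replicate 4 only, 18 of them.

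The second library pair was then compared with the first over all genes. It sets 2 replicates of the group against the other 2, and the sample titles of all differ only in the replicate number. The deposited counts are named in another style for each pair and numbered from 1 within each. Of 13905 genes that passed the filter on low counts, 176 (1.27%) were called, 99 (0.712%) higher and 77 (0.554%) lower in the second pair. Of the 63 members, 21 passed that filter and 2 were called, Hist1h4d and Hist1h1e, both higher. None was called lower by edgeR or by DESeq2, and none had an unadjusted p under 0.05 in that direction, beside 9 in the other. Over all tested genes, 8.57% had such a p in the lower and 8.22% in the higher direction. The 42 members that did not pass the filter were not tested, and those that passed only through high counts in the second pair had to differ, so the share called among the 21 supports nothing. By DESeq2, 6 of 20 members with an adjusted p were called, and by edgeR with no filter 6 of 50. They were the same members in both fits, all higher: Hist1h4d, Hist1h1e, Hist1h1c, Hist1h1d, Hist2h4 and Hist3h2ba. Over all genes with an adjusted p in those fits, 5.22% were called higher by DESeq2 and 2.3% by edgeR with no filter. Leaving out replicates 1, 2, 3 and 4 in turn gave 4, 6, 2 and 3 called members, all higher, and 699, 662, 420 and 389 called genes in all. In the same order, 2.18%, 2.39%, 1.23% and 1.14% of all tested genes were called higher. Each of these fits sets 1 library against 2, takes its spread from the pair that is left and assumes that the lone library varies alike. The number of members tested also changed from fit to fit. The limit on members that passed the filter only through the second pair holds in these fits too.

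Direction over all 63 members, with no test, was as follows. In 28 members (44.4%) both libraries of the second pair lay above both of the first, and in 2 both lay below. Over all shared genes these shares were 12.1% and 11.3%. Rows at 0 in every library cannot separate. Of the 31735 shared genes 18346 had a count, and of the 63 members 50 did, so such rows weigh more on the shares over all genes. The 28 include members with few counts, such as Hist1h4i with 1 count in each library of the second pair. Taking the counts of each pair together, 43 members were higher in the second pair, 7 were higher in the first and 13 were at 0 in both. Of the 43, 18 had no count in the first pair. The 7 were Hist2h2be, Hist1h2bc, Hist1h2bp, Hist2h2bb, Hist1h2ad, Hist1h2ao and Hist1h2bk, 5 of them H2B genes.

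**Figure D3:**
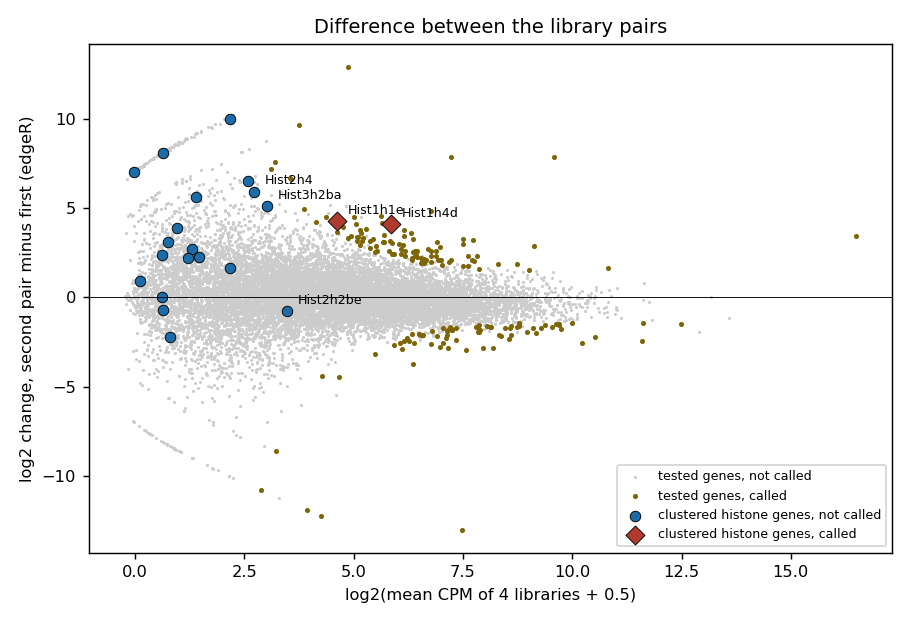
Log2 change between the library pairs (vertical axis, edgeR fit) against log2(mean CPM + 0.5) for the 13905 tested genes, with the 21 tested clustered histone genes as large symbols. Hist1h4d and Hist1h1e, at log2 changes of 4.08 and 4.26, are called; members along the upper edge had 0 counts in the first pair, and their fitted change is no measure of size.

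The gene models separate the members in a way that the choice of genes did not use. In 20 members the GENCODE model ran on for more than 100 bases after the stem-loop, in 20 it ended within 100 bases, and in 23 it held no match. Hist1h4d has 770 bases after the stem-loop, Hist1h1e 1153, Hist2h4 1257, Hist1h1c 840, Hist1h4c 454 and Hist3h2ba 169. The members with a long end summed to 14.7, 11.2, 257 and 180 CPM in replicates 1 to 4. Those that end near the stem-loop summed to 3.03, 3.92, 13.8 and 15.8 CPM, and those with no match to 28.9, 6.56, 29.1 and 18.9. These sums are not divided by length, and the long-ended models are mostly the longer ones. Sequence shared with other genes, given below, was not taken into account either. Levels are therefore not comparable between these 3 kinds of model. The long-ended members made up 31.5% and 51.6% of the clustered histone counts in the first pair and 85.7% and 83.8% in the second. Hist1h4d and Hist1h1e alone held 24.2%, 31.8%, 63.8% and 54.5%. The annotation used by the submitters was not given in the sources used here, and it may differ between the pairs, whose gene rows differ in number. A gene whose counted model ends at the stem-loop cannot collect reads beyond it. Whether the counted models changed between the pairs was not tested.

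**Figure D4:**
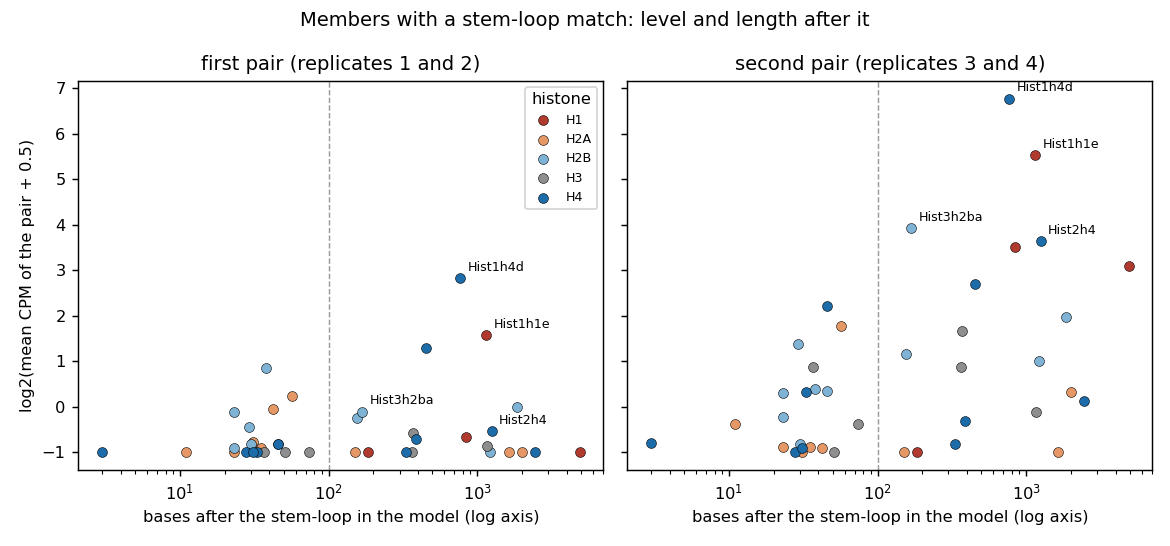
Level of the 40 members with a stem-loop match, as log2(mean CPM of the pair + 0.5), against the bases after it in the GENCODE model (log axis), in the first pair (left) and the second (right). The dashed line marks 100 bases; the highest points, Hist1h4d and Hist1h1e, have 770 and 1153 bases after the stem-loop.

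Sequence shared with other genes, be they copies or genes that overlap at the same place, bears on the lowest members. For each member the share of its 50-base words found in the GENCODE transcripts of any other gene, on either strand, ran from 0 to 100% with a median of 49.5%. Reads that fit more than 1 place were not counted to a gene, and made up 28.6% to 37.2% of each table's total. Of 30 members with over 50% shared words, 8 were at 0 counts, none reached 1 CPM in all libraries, and the sum was 12.5 ± 11.8 CPM (SD, n = 4). Of the other 33, 5 were at 0, 4 reached 1 CPM in all libraries, and the sum was 133 ± 123 CPM. Shared words were 10.2% for Hist1h4d, 32% for Hist1h1e, 1% for Hist2h4 and 0 for Hist2h2be, but 100% for Hist2h2aa2, Hist2h2bb, Hist2h3b and Hist2h3c1. Words shared only with an overlapping gene need not give a read several places. Counting other clustered genes alone, the share was 100% for Hist2h2aa2, 79.7% for Hist2h3b, 34.7% for Hist2h3c1 and 0 for Hist2h2bb. The split at 50% did not separate these 2 kinds. Levels of the members with many shared words are therefore uncertain, and a count of 0 there does not show that the gene is silent.

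Summed in CPM, the replacement histone genes were higher than the clustered ones in each library and varied less between libraries, though not each gene did. The 11 genes summed to 409, 369, 547 and 458 CPM in replicates 1 to 4, and 9 of them reached 1 CPM in all 4. H2afz, which encodes H2A.Z, was at 97.1, 72.3, 193 and 197 CPM. H2afy, which encodes macroH2A1, was at 122, 153, 69.0 and 45.4, H3f3b at 65.8, 45.3, 81.4 and 50.8, H3f3a at 11.5, 1.61, 18.8 and 9.99, and H1f0 at 50.8, 53.5, 71.4 and 56.3. Means of the others were 15.8 CPM for H2afy2, 14.6 for H2afv and 7.14 for H2afj, and Cenpa, the centromere histone, was at 0.946, 0.0643, 0 and 0 CPM. Of 10 tested, none was called between the pairs by edgeR, 4 had an unadjusted p under 0.05, and DESeq2 called 2. H1fx, a linker histone, was at 0.0946, 0.129, 3.77 and 4.57 CPM, higher in both libraries of the second pair, with a log2 change of 5.15 and SE 2.06 (edgeR adjusted p = 0.226). H2afx, which carries the stem-loop printed above, was at 13.8, 4.89, 71.5 and 67.3 CPM, and its log2 change of 2.92 with SE 0.65 just missed the threshold (edgeR adjusted p = 0.0505).

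Within libraries, clustered and replacement histone genes were compared by their summed CPM per kb of exon, as log2 ratios with a pseudocount of 0.5 CPM per kb. Over all histones the log2 ratio of clustered to replacement genes was -2.11, -2.43, 0.15 and -0.23 in replicates 1 to 4, a mean of -1.16 ± 1.3 (SD, n = 4) that is within its spread. The first pair lay well below 0 and the second near it. For H1 the ratios were -3.85, -3.62, 0.42 and -0.73, for H2A -6.13, -3.33, -2.20 and -4.62, and for H3 -4.87, -4.81, -1.06 and -1.15. H2A and H3 were below 0 in 4 of 4 libraries, by means of -4.07 ± 1.69 and -2.97 ± 2.16. Exact permutation of the signs of the 4 ratios (two-sided) gave p = 0.25 for H1 and for all histones, and for H2A and H3 the smallest p that 4 libraries allow, which is above 0.05. Adjusted over these 4 comparisons, each exact p was 0.25. With RefSeq gene spans as lengths the ratio over all histones was -0.31, and without division by length -2.28.

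**Figure D5:**
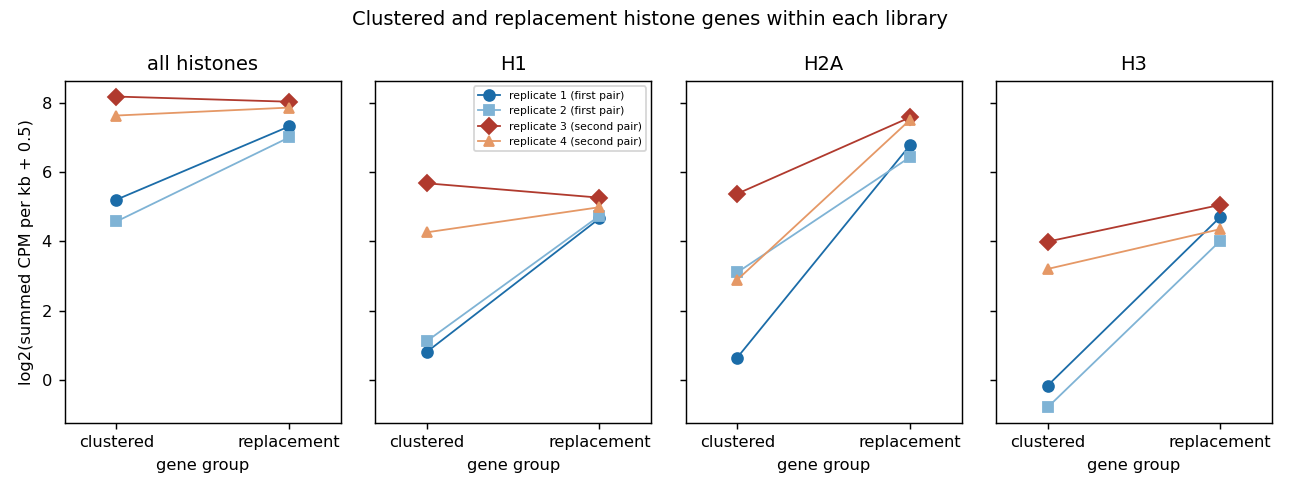
Log2 of summed CPM per kb plus 0.5 for clustered (left point) and replacement (right point) histone genes, 1 line per library, over all histones and for H1, H2A and H3. The lines of replicates 1 and 2 rise steeply, while over all histones those of replicates 3 and 4 are nearly flat.

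No gene of the lists for histone mRNA processing, histone chaperones or dividing cells was called between the pairs by edgeR. Of the 11 listed genes for histone mRNA transcription and processing, 10 had a row and 8 reached 1 CPM in all libraries. Npat, which drives the clustered genes, was at 77.8, 65.3, 60.3 and 47.8 CPM, and Slbp, which binds the stem-loop, at 13.1, 4.18, 12.5 and 21.9. None of 9 tested was called by edgeR (1 at an unadjusted p under 0.05) and none by DESeq2. Of 9 histone chaperone genes 6 reached 1 CPM throughout; of 8 tested, edgeR called none, with 3 at an unadjusted p under 0.05, and DESeq2 called 2, Asf1b higher and Anp32e lower. Asf1b, a chaperone of H3 and H4 in dividing cells, was at 0, 0, 5.97 and 2.61 CPM, the same direction as most clustered genes (edgeR adjusted p = 0.114). Of 23 genes of DNA replication and mitosis, 9 reached 1 CPM in all libraries, and the list summed to 134, 114, 90.0 and 110 CPM in replicates 1 to 4. Mki67, a marker of cycling cells, was at 29.3, 21.9, 15.8 and 27.4 CPM, Top2a at 17.7, 3.54, 5.42 and 14.6, and Pcna at 24.2, 11.2, 10.8 and 15.8. Other genes of the list peaked in replicate 3: Cdt1 was at 0, 0.386, 3.93 and 0 CPM, Tk1 at 0, 0.129, 3.93 and 0, Birc5 at 1.18, 0, 4.08 and 0, and Ccne1 at 13.0, 4.24, 19.3 and 3.92. With Rrm2 and Ccnb1, 6 of the 23 were highest in that library, beside 7 in replicate 1, 8 in replicate 2 and 2 in replicate 4. Of 12 tested in this list, edgeR called none, with 1 at an unadjusted p under 0.05, and DESeq2 called 1, Mcm6, which was lower. The part of dividing cells in the level of the clustered histone genes was not tested.

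Of 4 listed RNAs without a poly(A) tail that had a row, 2 were tested, Rn45s and Rmrp, and edgeR called 1. Rn45s rose in the second pair by a log2 change of 3.41 with SE 0.42 (edgeR adjusted p = 0.00576). Its shares had the same order over the 4 libraries as the summed clustered histone level, lowest in replicate 2 and highest in replicate 3. Rmrp had 0, 0, 28 and 61 counts and was not called by edgeR (edgeR adjusted p = 0.148). With no count in the first pair, it passed the filter only through the second. Both Rn45s and Rmrp had an unadjusted p under 0.05, and DESeq2 called both. Rpph1 and Terc were at 0 throughout. The part of such RNA in the result was not tested. The median log2 change was 0.32 (quartiles -0.62 and 1.40) for the 238 tested genes with under 1 kb of exon that are no members. Over all 12888 tested genes with a length the median was -0.02. Of the 238, 3 (1.26%) were called higher, beside 0.729% of all. For the 1182 tested genes with 1 to 2 kb, members included, the median was 0.30 (quartiles -0.67 and 1.33). Of these 1182, 21 (1.78%) were called higher and 5 lower. Hist1h4d and Hist1h1e, with 1138 and 1930 bases of exon, are among them. For the 361 tested genes with no intron in the model that are no members, the median was 0.12 (quartiles -0.96 and 0.93). Of these 361, 1 (0.277%) was called higher and 3 lower. The part of gene length or of introns was not tested.

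Markers of other cells were as follows. Genes listed for oligodendrocyte precursors, not all of them confined to dividing cells, summed to 31.8, 49.1, 23.6 and 110 CPM in replicates 1 to 4. Of these, 5 of 6 reached 1 CPM in every library. Olig1 had the highest mean, at 11.9, 20.5, 5.81 and 52.2 CPM, and Pdgfra was at 6.43, 9.06, 3.93 and 13.3. Of these 6 genes, 5 were highest in replicate 4 and 1 in replicate 2. Their part in the level of the clustered histone genes was not tested. Microglia markers summed to 30.5, 8.16, 9.82 and 43.9 CPM, endothelial markers to 163, 239, 120 and 115, and red cell markers to 15.3, 3.54, 6.52 and 1.89. Cerebellar granule cell genes summed to 436, 958, 96.6 and 157 CPM, and 2 of 5, Cbln3 and Neurod1, fell in the second pair by edgeR. All 5 had log2 changes below 0, from -1.69 to -3.75, 4 had an unadjusted p under 0.05, and DESeq2 called 4, all lower. The part of this difference in tissue markers was not tested. None of the 6 marker genes of oligodendrocytes, oligodendrocyte precursors or endothelium, of the 4 tested for microglia or of the 3 for red cells was called by edgeR or DESeq2, nor had an unadjusted p under 0.05. Among neuronal and astrocyte markers edgeR called none, DESeq2 called 1 each, and 2 and 1 had an unadjusted p under 0.05. Without an unpurified library, fewer cells of a type, less RNA per cell and another purity of the pulldown cannot be told apart.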

How the data were processed

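Raw read counts per gene symbol, 1 table per library, were deposited by the authors without normalization. Per the submitters' processing notes, STAR 2.0.0e and HTSeq were used with mm10; which annotation, strand setting and options HTSeq had is not given in the sources used here. The 5 HTSeq summary rows were left out (of each table's total, 28.6% to 37.2% reads with several alignments, 24% to 30.1% with no feature, 1.25% to 2.07% ambiguous), as was the empty row unknown. CPM used each table's gene total. Lengths, gene models and coordinates came from GENCODE M21 (GRCm38, the assembly of mm10), promoters from RefSeq (GRCm38.p6), matched by older symbols for all 63 members. Pairs of libraries were compared with edgeR 4.0.16 (low counts removed with filterByExpr, TMM scaling, quasi-likelihood test, calls at a Benjamini-Hochberg adjusted p under 0.05) on the rows shared by all tables, with SE taken as the log2 change over the root of F. The script was tested on simulated data. DESeq2 1.42.0, other scalings and filters, and leaving out each replicate were alternatives. The members and the 15 gene lists were chosen with earlier results of these data known. Named members were the 12 of highest mean CPM, the 3 most variable, those called, and those with known polyadenylated or testis transcripts; others are named to account for their class or count.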

Additional observations from a re-analysis of the deposited data

Results flagged for a closer look

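In 26 sets of 4 library values that were examined, 2 members had 1 library far from the other 3 by Dixon's criterion, which chance meets in about 1 of 20 sets. Hist1h1c was at 20.3 CPM in replicate 3 and at most 1.44 CPM elsewhere. Hist1h4h was at 7.57 CPM in replicate 4 and at most 0.707 CPM elsewhere. The 26 sets did not cover all 63 members, and these 2 are not the only ones with nearly all counts in 1 library. Among others, Hist1h2ak had 2, 2, 80 and 2 counts in replicates 1 to 4. Hist1h3a, Hist1h2ac and Hist1h4f had 34, 19 and 19 counts in replicate 3 and none elsewhere, and Hist4h4 had 18 in replicate 4 only. Hist1h2al, an H2A gene, had a row in the tables of replicates 3 and 4 only and was therefore no member. It had 24 counts in replicate 3 and 4 in replicate 4, above the 3 that a count of 0 allows, and the tables of replicates 1 and 2 give no value for it.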

How the results depend on the processing

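No paired analysis was possible because the 4 libraries form 1 group. The call of Hist1h4d held under every alternative run, and that of Hist1h1e in all but the fit without replicate 3. Called members numbered 6 by DESeq2, 6 with no filter and 4 with library totals that leave out Rn45s and no TMM, and ranged from 2 to 6 with 1 replicate left out. All called genes numbered 1398 by DESeq2, 875 with no filter and 340 with those totals (271 higher and 69 lower), and ranged from 389 to 699 with 1 replicate left out. Those totals moved the median log2 change of all genes by 0.23. With 1 replicate left out, the log2 change of Hist2h2ab ranged from -0.056 (without replicate 3) to 3.79 and that of Hist2h2be from -1.58 to 1.27 (without replicate 1); the cause was not tested. RefSeq spans, a smaller pseudocount and the ratio of Hist1h4h without replicate 4 were chosen after seeing the data. Low counts limit most members: 42 of 63 were not tested.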
